A study of Drosophila melanogaster with 54 samples.

Results

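Skeletal muscles of the Drosophila embryo owe their shape and attachment to identity genes, transcription factors switched on in small sets of muscle progenitors. The genes described here are the 5 of these factors without a homeodomain that were picked by name for this description: nau, Kr, kn, vg and Poxm. Each gene was read by 1 probe set annotated to it alone, so 5 probe sets of 13966 tested, and 5 genes of 10843, are in question. The probe sets were 143280_at for nau, 143209_at for Kr, 143207_at for kn, 143403_at for vg and 143308_at for Poxm, and none of them had a missing value.

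As background, each gene encodes a different kind of regulator. nau (nautilus) is the fly relative of the vertebrate myogenic factor MyoD and has a basic helix-loop-helix domain. Kr (Krüppel) is a zinc finger repressor that acts first as a gap gene and later in founders of particular muscles and in the nervous system. kn (knot, also called collier) belongs to the EBF family and sets the identity of a dorsal acute muscle, and it also works in the head, in neurons and in blood cell development. vg (vestigial) is a cofactor without its own DNA-binding domain that works with the TEAD factor Scalloped in wing and muscle. Poxm (Pox meso) is a paired-domain factor of ventral and lateral somatic mesoderm.

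Muscle progenitors arise from clusters of equivalent mesodermal cells. Ras signalling, fed by the EGF receptor and the FGF receptor Heartless, promotes the progenitor choice, and Notch, triggered by its ligand Delta, blocks it in neighbouring cells. Wingless through Armadillo, and Dpp through its receptor Thickveins, set where in the mesoderm this happens. Progenitors divide into founder cells, which keep expressing identity genes, while the remaining cells become fusion-competent myoblasts under the factor Lmd.

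RNA was taken from cells sorted by fluorescence out of stage 11 embryos and hybridised to 54 DrosGenome1 arrays, in 18 groups of 3, which fall into 3 numbered sets. Every embryo, controls included, carried twi-GAL4 and UAS-GFP, so GFP marked cells expressing Twist, and wild type cells of both gates, GFP positive and GFP negative, were arrayed in every set. All genotype groups were GFP positive cells. In set 1 these were EGFR (UAS-lambda-Top), FGFR (UAS-lambda-Htl with UAS-Dof) and spi mutant embryos, which lack an EGFR ligand. In set 2 they were Arm (UAS-Arm s10), Ras (UAS-Ras1 Act), Arm+Ras (both transgenes), Pnt (UAS-Pnt P2VP16), Tkv (UAS-Tkv QD) and wg mutant embryos. In set 3 they were Dl mutant embryos, lmd mutant embryos and Notch (UAS-Notch intra). The transgenes are active only where twi-GAL4 drives them, whereas the mutants lack gene function in the whole embryo, and the labels name no mutant allele. Embryos had been aged at 25 °C to 5.5 to 7.5 h after laying, except the 3 genotypes of set 3, which were aged to 6 to 8 h.

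Values are log2 expression per probe set. Array medians ran from 4.575 to 4.62 in set 1, 4.166 to 4.276 in set 2 and 3.648 to 3.725 in set 3, so levels are set side by side only within a set. No detection calls were given, and brightness differed between the 5 genes. kn lay above the array median on every array of set 1, whereas Poxm lay under it on 15 of 15 arrays of set 3 and on 20 of 24 of set 2, and vg lay under it on 22 of 24 arrays of set 2. The 4 mouse control probe sets, which should have no target in fly RNA, reached 4.05, 4.71 and 3.59 in the 3 sets, and readings at or under these values are not told from those of empty probe sets. That held for 43 of 54 Poxm readings, 31 of vg, 18 each of nau and Kr and 14 of kn, and in set 2 it held for the wild type GFP positive arrays of all 5 genes. Where 1 of 2 groups in a called genotype comparison reached into that range, the measured log2 fold change is followed by a bound. The bound is the brighter mean over the dimmer group with its readings raised to the top of the range. Where both lay in it, no bound is given. A log2 difference printed for such a pair is one between readings not told from those of empty probe sets. Letter A arrays shared a level of the hybridization controls, at 9.61 to 10.14 in set 1 against 7.41 to 8.09 for letters B and C, and were the lowest in all 8 groups of set 2 and all 5 of set 3. Values with the letter as a block are therefore given where they change a call. Some of the altered genes have probe sets of their own, which give a partial check of the labels. The 2 Egfr probe sets gave a log2 fold change of 3.41 ± 0.14 and 0.70 ± 0.13 with EGFR (limma, adjusted p = 6.17e-09 and 0.0074). htl, the FGF receptor gene, read 7.46, 7.51 and 7.62 with FGFR against 5.50, 5.93 and 5.55 in wild type (limma, adjusted p = 0.00521). Between EGFR and FGFR, however, htl differed by only -0.31 ± 0.32 (limma, adjusted p = 0.802), so it does not tell these 2 labels apart. Of the 2 tkv probe sets 1 was called, at 4.04 ± 0.17 with Tkv (limma, adjusted p = 1.03e-11), and the other gave 1.61 ± 0.65 (adjusted p = 0.167). The transcript was not lower in either mutant measured, at 0.00 ± 0.04 for spi and 0.44 ± 0.12 for lmd (limma, adjusted p = 0.995 and 0.149), and as the alleles are not named this does not check those 2 labels. Replicate arrays correlated at r = 0.872 to 0.943 across all probe sets. The labels state no separate embryo collections for the replicates, so p-values measure only the spread between these samples, which may be technical.

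**Figure D1:**
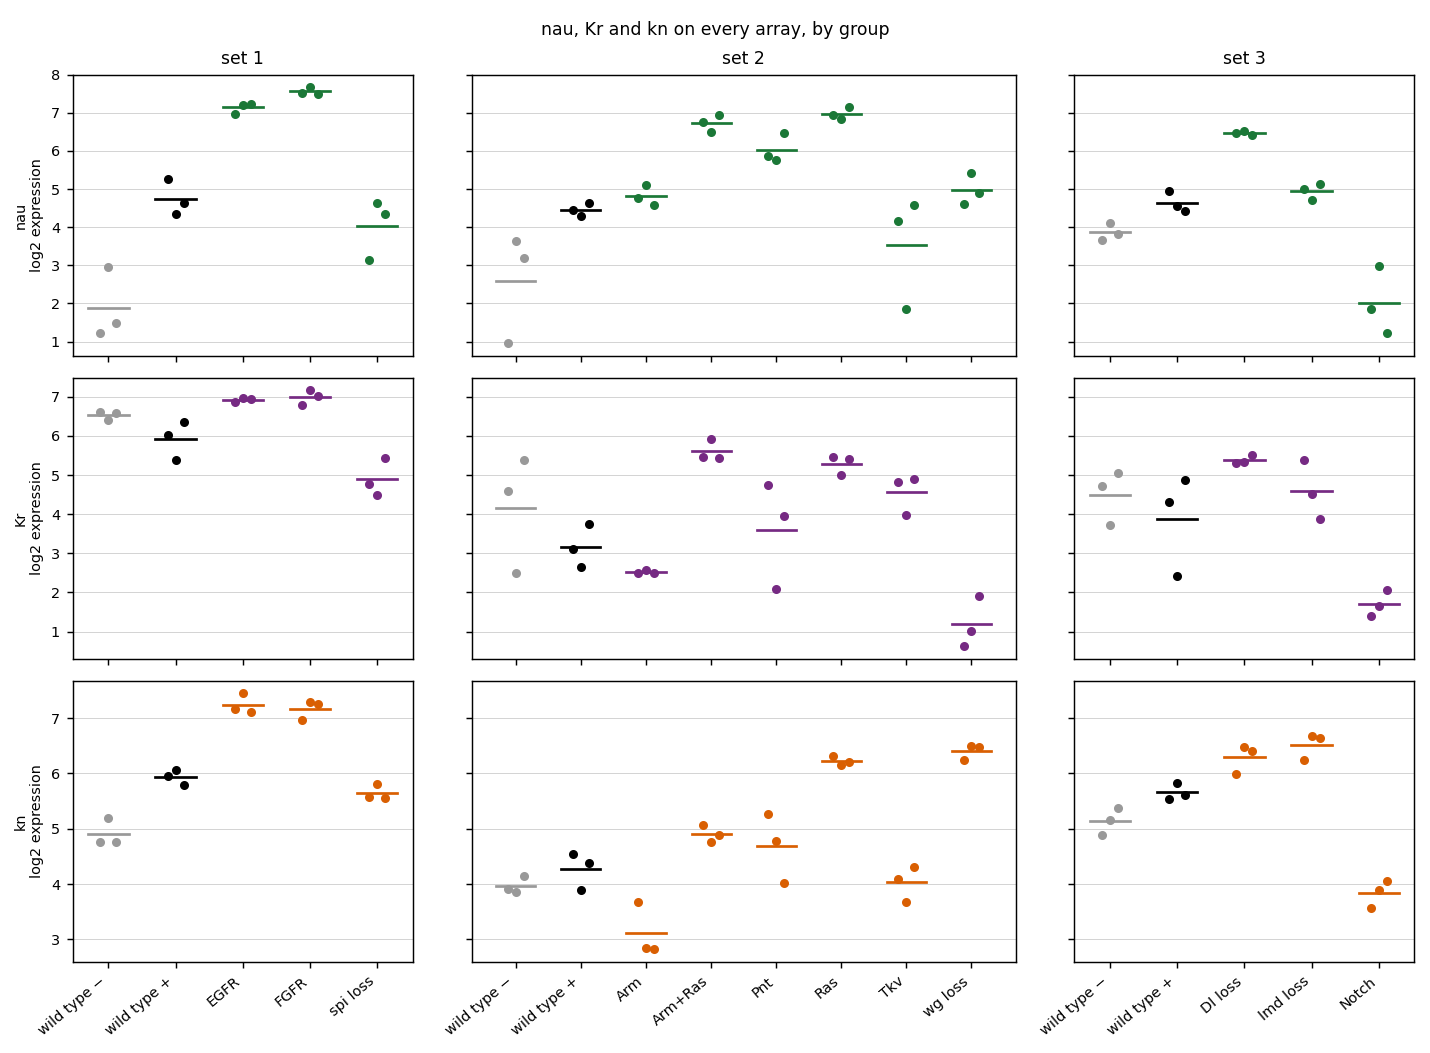
The log2 expression (vertical axis) of nau, Kr and kn is shown for each of the 54 arrays, grouped by genotype within each numbered set. Points are arrays, bars are means of 3, grey marks wild type GFP negative cells and black wild type GFP positive cells. The nau arrays of EGFR, FGFR, Ras, Arm+Ras, Pnt and Dl loss lay clear above wild type, the Pnt change being uncalled. With Notch, nau, Kr and kn lay below both wild type gates, the Kr change from GFP positive cells being uncalled.

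The sorted wild type mesoderm carried more nau and kn than the rest of the embryo, and the other genes showed no called difference. In GFP positive cells nau was higher by a log2 fold change of 1.83 ± 0.37 (SE, 9 arrays per gate; limma, adjusted p = 0.00154). No bound was computed for the gate, although nau readings of sets 1 and 2 reached into the range of empty probe sets. kn was higher by 0.62 ± 0.14 (limma, adjusted p = 0.00415). These 2 of 5 genes stand against 16.7% of all probe sets called in this comparison.

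The arrays behind the nau difference were apart in each set. Set 1 gave 5.25, 4.34 and 4.64 (arrays A, B and C) in GFP positive cells and 1.23, 2.96 and 1.48 in GFP negative cells. Set 2 gave 4.44, 4.30 and 4.64 against 0.97, 3.63 and 3.20, and set 3 gave 4.95, 4.56 and 4.42 against 3.66, 4.11 and 3.82. All GFP negative arrays of set 1 and both gates of set 2 lay within the range of empty probe sets. The lowest GFP positive array was above the highest GFP negative array in all 3 sets, while the difference of means went from 2.86 in set 1 through 1.86 in set 2 to 0.78 in set 3. An F test of whether the gate difference itself varied between sets called 7.94% of all probe sets and 0 of these 5 (2849 probe sets and 0 of the 5 at an unadjusted p under 0.05; limma, adjusted p = 0.279 for nau and 0.29 for kn). Fitted by itself, set 1 called both genes (limma, adjusted p = 0.0166 for nau and 0.0159 for kn), and sets 2 and 3 called neither.

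The kn difference was smaller and less even. In set 1 kn read 5.96, 6.07 and 5.79 in GFP positive cells and 4.76, 5.19 and 4.77 in GFP negative cells. In set 2 the readings were 4.54, 3.89 and 4.37 against 3.90, 3.86 and 4.15, and in set 3 they were 5.54, 5.84 and 5.61 against 4.89, 5.16 and 5.38. The gates were apart in sets 1 and 3 and overlapped in set 2, where all kn readings of both gates lay within the range of empty probe sets. Without the letter A arrays the kn call was lost (0.51, adjusted p = 0.104).

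Kr read on average lower in mesoderm than outside it, by a log2 fold change of -0.74 ± 0.36 (limma, adjusted p = 0.201), called only with the letter as a block (0.0338). Its gates were apart in set 1, at 6.04, 5.39 and 6.36 in GFP positive against 6.60, 6.41 and 6.59 in GFP negative cells, and overlapped in sets 2 and 3. vg differed by 0.08 ± 0.38 (adjusted p = 0.932) and Poxm by -0.08 ± 0.21 (adjusted p = 0.882). Kr, kn and vg are also expressed in the nervous system. Of 7 neural markers measured, 5 were called, all lower in GFP positive cells, and so were 6 of 7 ectodermal markers. The share of neural or ectodermal RNA in the sorted cells was not tested as a part of these gene levels. In bulk RNA of sorted cells, fewer cells of a type and less RNA per cell cannot be told apart, which holds for every comparison below.

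**Figure D2:**
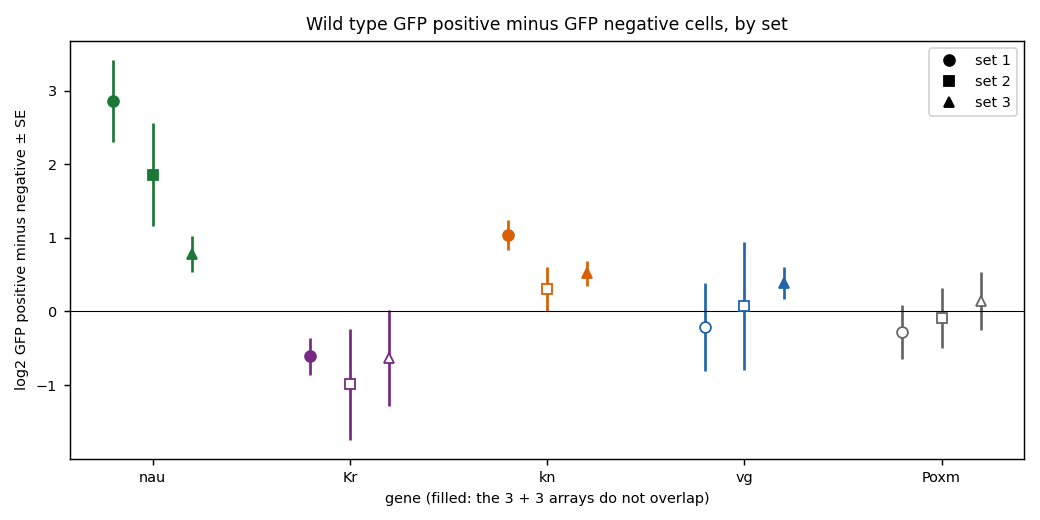
The log2 difference between the gates in wild type, GFP positive minus GFP negative (vertical axis, ± SE) is plotted for each gene in sets 1, 2 and 3. Filled symbols mark sets in which the 3 arrays of each gate do not overlap. nau is above 0 and filled in all 3 sets, from 2.86 in set 1 to 0.78 in set 3.

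Among 14 measured homeobox identity genes, 1 rose and 3 fell in the GFP positive cells, with a median log2 fold change of 0.03 beside 0.003 over all probe sets. slou rose (2.50), and lbl (-1.26), mirr (-0.58) and Dr (-0.50) fell. Of 9 other identity genes, org-1 (1.90), a T-box gene, and tey (2.67) rose, while Doc1 (-0.45) and jumu (-0.68) fell. The bHLH factor twi, which pairs with Da and marks the gate itself, rose by 2.87. Of 8 measured relatives of Poxm in the Pax family, 0 rose and 2 fell, toy (-1.81) and ey (-0.59), both known from eye and brain.

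Constitutive receptor tyrosine kinase signalling raised 3 of the 5 genes. With activated EGFR, nau rose 5.25-fold, kn 2.47-fold and Kr 2.00-fold, and with activated FGFR the same 3 genes rose 7.03-fold, 2.35-fold and 2.10-fold. No gene fell. The background share of called probe sets was 2.74% for EGFR and 2.21% for FGFR. Both comparisons use the same 3 wild type arrays.

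nau read 6.98, 7.19 and 7.24 with EGFR and 7.51, 7.67 and 7.50 with FGFR, against 5.25, 4.34 and 4.64 in wild type GFP positive cells. Neither genotype overlapped the wild type. The log2 fold changes were 2.39 ± 0.44 (limma, adjusted p = 0.00761) and 2.81 ± 0.44 (limma, adjusted p = 0.00262). All 6 arrays of the activated receptors lay between the 86.5 and 92.4 percentile of their array, while the wild type arrays lay between 46.6 and 60.9.

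kn read 7.16, 7.45 and 7.12 with EGFR and 6.97, 7.30 and 7.26 with FGFR, against 5.96, 6.07 and 5.79 in wild type. These groups were again apart from wild type. The rise was 1.30 ± 0.16 (limma, adjusted p = 0.000292) for EGFR and 1.23 ± 0.16 (limma, adjusted p = 0.000478) for FGFR. For nau and kn, both calls held without any 1 array and under every other setting tried.

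Kr read 6.87, 6.96 and 6.94 with EGFR and 6.80, 7.17 and 7.02 with FGFR, against 6.04, 5.39 and 6.36 in wild type, where array B was the lowest. The groups did not overlap, and the fold changes were 1.00 ± 0.24 (limma, adjusted p = 0.0456) and 1.07 ± 0.24 (limma, adjusted p = 0.0343). These calls are fragile. Leaving out wild type 1A or 1B or any 1 genotype array ended each of them, with adjusted p up to 0.15 (EGFR, without wild type 1B) and 0.144 (FGFR, without FGFR 1B), so only the fit without wild type 1C kept them. They were also lost without a variance trend (0.115 and 0.0876), in fits of the 2 groups alone (0.131 in both) and after dropping the letter A arrays (0.279 and 0.201).

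Poxm, at 3.63, 3.96 and 3.53 in wild type, read 4.26, 5.05 and 5.92 with EGFR and 4.41, 5.21 and 5.55 with FGFR. The groups were apart, but the spread among treated arrays was wide, and changes of 1.37 ± 0.49 (adjusted p = 0.215) and 1.35 ± 0.49 (adjusted p = 0.236) missed the threshold. vg moved by 0.64 ± 0.51 in both (adjusted p = 0.706 and 0.68) and overlapped wild type, whose array C was at 2.52 and the other two at 4.59 and 4.52.

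Set against each other, EGFR and FGFR differed in 0 of the 5 genes, where 0.229% of all probe sets were called (12 up, 20 down, and 1445 at an unadjusted p under 0.05, none of them among the 5). The differences, EGFR minus FGFR, were -0.42 ± 0.44 for nau, -0.07 ± 0.24 for Kr and 0.07 ± 0.16 for kn. The nau arrays themselves did not overlap between the receptors, FGFR being the higher (limma, adjusted p = 0.802).

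Loss of the EGFR ligand Spitz lowered Kr alone among the 5 genes, beside 3.19% of all probe sets called. Kr read 4.77, 4.49 and 5.43 in spi mutants against 6.04, 5.39 and 6.36 in wild type, a log2 fold change of -1.03 ± 0.24 (limma, adjusted p = 0.0355). The ranges touched, spi array C lying above wild type array B. Omission of wild type 1A (adjusted p = 0.102), wild type 1C (0.144), spi 1A (0.111) or spi 1B (0.138) ended the call, as did the fits without a variance trend (0.0785), with only the compared groups (0.173) and without the letter A arrays (0.309). nau read 3.14, 4.63 and 4.35 in spi mutants (-0.70 ± 0.44, adjusted p = 0.444) and kn 5.57, 5.81 and 5.56 (-0.29 ± 0.16, adjusted p = 0.366), and both overlapped wild type. Of the 7 neural markers 3 fell in spi mutants, with a summed log2 level of 40.98 to 42.69 against 46.04 to 46.31, and their part in the Kr value was not tested.

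The order of levels in set 1 put nau lowest in GFP negative cells (mean 1.89), then spi loss (4.04), wild type (4.74), EGFR (7.14) and FGFR (7.56), and only spi loss and wild type overlapped as neighbours. kn had the same low end (4.90, 5.65 and 5.94), followed by FGFR (7.17) and EGFR (7.24), which overlapped, as did spi loss and wild type. For Kr the order began with spi loss (4.90) and wild type (5.93), which overlapped, and went on to GFP negative cells (6.54), EGFR (6.92) and FGFR (7.00), the last pair overlapping. All neighbours overlapped for vg, whose means ran from 3.88 to 4.52, and for Poxm, whose means ran from 3.71 to 5.08.

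The related genes called in set 1 included the following. Of 8 Pax relatives 1 rose and 1 fell with EGFR, 1 fell with FGFR and 1 fell in spi mutants. Among 14 homeobox identity genes 1 rose in spi mutants. The same homeobox identity genes were called with each receptor, eve up (0.84 with EGFR and 0.73 with FGFR) and Dr down (-1.19 and -1.40), 2 of 14 measured. Among 9 other identity genes org-1 (0.79 and 0.67) and eya (0.91 and 1.33) rose. emc, a helix-loop-helix protein that lacks the basic domain and keeps bHLH factors off DNA, fell by 0.49 with EGFR and by 0.41 with FGFR, while da, the common bHLH partner, fell by 0.52 in spi mutants. hb was the only one of 6 gap gene relatives called with either receptor (0.63 and 0.66). Of 9 founder cell genes 7 rose with EGFR and 8 with FGFR, with medians of 1.26 and 1.35 beside 0.007 and 0.01 for all probe sets, and 3 and 4 of 6 fusion-competent myoblast genes fell. These 2 lists may hold genes first found with these samples, so their direction is not independent evidence here or below. Neural markers had a summed log2 level of 44.34 to 45.00 with EGFR and 43.35 to 45.52 with FGFR, below the wild type range given above.

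**Figure D3:**
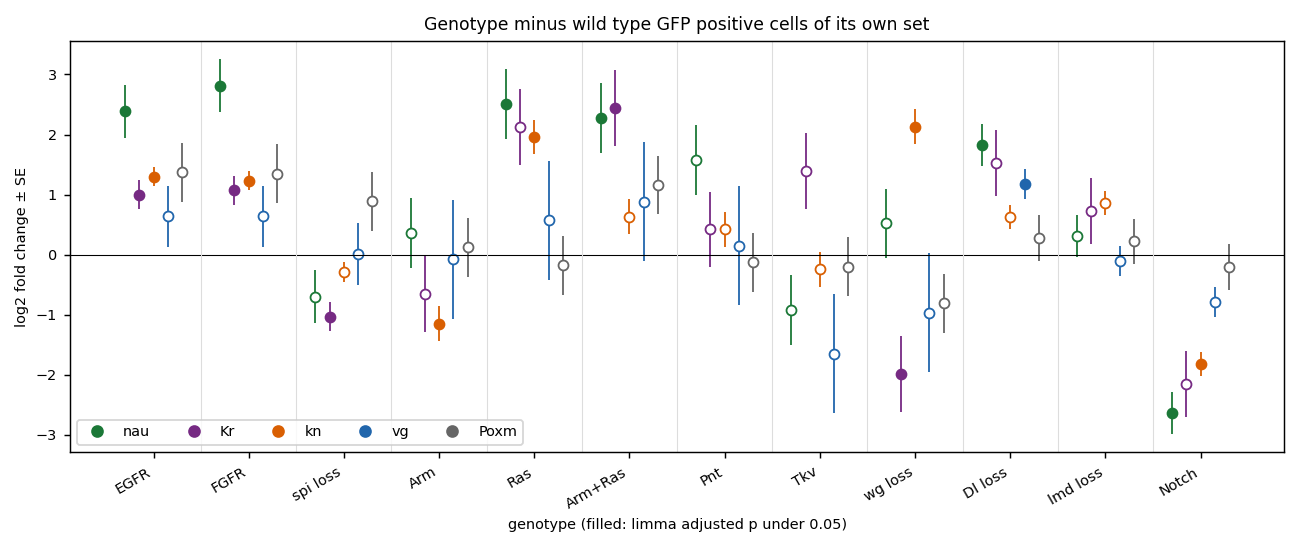
The log2 fold change (vertical axis, ± SE) of each gene is given for the 12 genotypes, each against wild type GFP positive cells of its set, with filled points for a limma adjusted p under 0.05. nau and kn are higher with EGFR, FGFR and Ras and are lower with Notch. In wg loss kn is 2.13 above wild type. Kr is 1.99 below it, with all its readings in both groups within the range of empty probe sets.

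Activated Ras raised nau and kn, and the pair of transgenes raised nau and Kr. Activated Armadillo gave a called fall of kn between readings that all lay within the range of empty probe sets. The background shares were 4.59% for Ras, 6.92% for Arm and 2.42% for Arm+Ras, and these comparisons share their wild type arrays with each other and with Pnt, Tkv and wg.

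nau read 6.94, 6.83 and 7.15 with Ras and 6.76, 6.50 and 6.95 with Arm+Ras, against 4.44, 4.30 and 4.64 in wild type. With Arm it read 4.77, 5.11 and 4.59, overlapping wild type. Ras raised it by 2.51 ± 0.58 (limma, adjusted p = 0.0116) and Arm+Ras by 2.28 ± 0.58 (limma, adjusted p = 0.0382), and with Arm the difference was 0.36 ± 0.58 (adjusted p = 0.844). Against the range of empty probe sets, which held all 3 wild type arrays, nau was at least 4.81-fold higher with Ras and at least 4.09-fold higher with Arm+Ras. The Ras call was lost without Ras 2C (adjusted p = 0.0521) and without the letter A arrays (0.0756). The Arm+Ras call was lost without any 1 of the 6 arrays (adjusted p from 0.0851 without Arm+Ras 2B to 0.146 without Arm+Ras 2C), without a variance trend (0.0774) and without the letter A arrays (0.172), although the 3 + 3 arrays did not overlap.

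kn was called with each transgene alone, up with Ras and down with Arm. It read 6.32, 6.16 and 6.21 with Ras, 3.67, 2.85 and 2.83 with Arm and 5.06, 4.76 and 4.89 with both, against 4.54, 3.89 and 4.37 in wild type. The 4 groups did not overlap at all, with Arm lowest, wild type and Arm+Ras between, and Ras highest. The log2 fold changes were 1.96 ± 0.29 for Ras (at least 2.88-fold, limma, adjusted p = 0.000231), -1.15 ± 0.29 for Arm (limma, adjusted p = 0.0179) and 0.63 ± 0.29 for Arm+Ras (adjusted p = 0.436). The Arm and wild type arrays of kn all lay within the range of empty probe sets. The Ras call held under every setting. The Arm call was lost without wild type 2A (adjusted p = 0.102), wild type 2C (0.0649), Arm 2B (0.0857) or Arm 2C (0.0832), in the fit of the 2 groups alone (0.197) and after dropping the letter A arrays (0.0661).

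Kr read 5.47, 4.99 and 5.42 with Ras and 5.47, 5.93 and 5.44 with both transgenes, against 3.11, 2.65 and 3.75 in wild type and 2.50, 2.57 and 2.51 with Arm. Ras and Arm+Ras were apart from wild type, and Arm lay just below it. Arm+Ras raised Kr by 2.44 ± 0.63 (at least 1.87-fold, limma, adjusted p = 0.0425). With Ras the difference of 2.12 ± 0.63 missed the threshold (limma, adjusted p = 0.0616) and reached it in the fit of the 2 groups alone (0.0251) and with the letter as a block (0.0243). Any 1 of the 6 arrays left out ended the Arm+Ras call (adjusted p from 0.0591 without wild type 2C to 0.178 without wild type 2B), as did the fits without a variance trend (0.0714), without the letter A arrays (0.314) and with a covariate for RNA quality, the 3′ minus 5′ signal of the eIF-4a control (0.0805).

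Poxm read 3.71, 5.23 and 5.94 with Arm+Ras, against 3.78, 3.79 and 3.84 in wild type, 3.65, 3.57 and 3.64 with Ras and 3.96, 3.92 and 3.88 with Arm. High values in Arm+Ras were confined to arrays B and C, and the change of 1.16 ± 0.49 was not called (adjusted p = 0.363). vg read 4.18, 4.22 and 4.05 with Arm+Ras against 3.28, 3.27 and 3.26 in wild type (0.88 ± 0.99, adjusted p = 0.929). Its large SE comes from a spread pooled over groups of set 2 in which vg varied far more than in these. Every vg reading of set 2 lay within the range of empty probe sets.

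Direct tests within set 2 bear on how the transgenes combined. Relative to Ras alone, Arm+Ras lowered kn by a log2 fold change of -1.33 ± 0.29 (limma, adjusted p = 0.0208), the 1 call among the 5 genes beside 1.6% of all probe sets. It was lost without any 1 of the 3 Ras arrays (adjusted p 0.0868, 0.059 and 0.0725 without 2A, 2B and 2C), without Arm+Ras 2B (0.0893) or 2C (0.0804) and without the letter A arrays (0.132). nau (-0.23 ± 0.58, adjusted p = 0.971) and Kr (0.32 ± 0.63, adjusted p = 0.959) overlapped between Arm+Ras and Ras. Poxm was 1.34 ± 0.49 higher in Arm+Ras than in Ras (adjusted p = 0.237), and reached the threshold only without Arm+Ras 2A (1.96, adjusted p = 0.0474).

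Relative to Arm alone, Arm+Ras raised 3 of 5 genes beside 7.2% of all probe sets. The rises were 3.09 ± 0.63 for Kr (at least 1.87-fold, limma, adjusted p = 0.0031), 1.79 ± 0.29 for kn (at least 1.15-fold, adjusted p = 0.000394) and 1.92 ± 0.58 for nau (at least 3.67-fold, adjusted p = 0.0493). The kn call held under every setting. The nau call was lost without any 1 of the 6 arrays (adjusted p from 0.0831 without Arm+Ras 2B to 0.15 without Arm+Ras 2C), without a variance trend (0.0768), after quantile normalization (0.0558) and without the letter A arrays (0.157), and the Kr call only without the letter A arrays (0.0686). Poxm, uncalled at 1.04 (adjusted p = 0.265), reached the threshold without Arm+Ras 2A (1.67, adjusted p = 0.0449).

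The departure of Arm+Ras from the sum of the separate Arm and Ras responses was called for 0 of 5 genes and 4.44% of all probe sets (limma, 620 probe sets adjusted and 2281 at an unadjusted p under 0.05). It was -0.17 ± 0.42 for kn, -0.60 ± 0.82 for nau, 0.97 ± 0.89 for Kr and 1.22 ± 0.70 for Poxm, and 0 of the 5 passed an unadjusted p under 0.05.

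**Figure D4:**
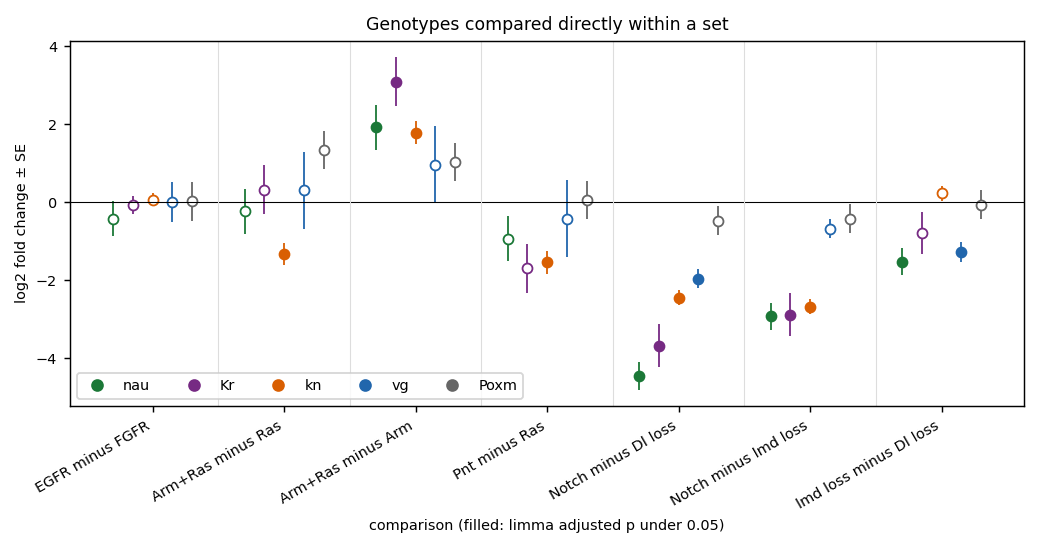
Log2 fold changes (vertical axis, ± SE) between genotypes of the same set are drawn for each gene, first genotype minus second, filled where the limma adjusted p was under 0.05. kn is lower in Arm+Ras than in Ras by 1.33 and lower in Pnt than in Ras by 1.54, and nau, Kr, kn and vg are all lower in Notch than in Dl loss.

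The other identity genes of the mesoderm showed no common direction in these genotypes. Ras raised eve (0.72), org-1 (1.70) and jumu (0.60), and lowered Doc3 (-2.40), and Arm+Ras raised slou (2.55), eve (0.95) and org-1 (1.23), and lowered Doc1 (-0.61) and Doc3 (-2.03). Arm raised H15 (0.74) and lowered jumu (-1.02) and the bHLH inhibitor emc (-0.64), and 0 of 14 homeobox identity genes were called. Founder cell genes rose in 5 of 9 cases with Ras and with Arm+Ras, and 1 of 9 fell with Arm. Of 6 gap relatives 1 fell with Ras and 1 with Arm, and of 8 Pax relatives 1 fell with Ras. Of 7 neural markers 0 were called with Ras or Arm+Ras, while 3 of 7 fell with Arm. Their summed log2 level was 40.54 to 41.24 with Ras, 38.67 to 39.61 with Arm+Ras and 32.40 to 34.64 with Arm, against 36.99 to 40.72 in wild type. Of 8 hemocyte and fat body markers, another place of kn expression, 4 rose with Ras and 2 with Arm+Ras, and 0 were called with Arm. The part of other cell types in the kn values was not tested.

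Activated Pointed, an ETS activator downstream of Ras, called none of the 5 genes, beside 8.85% of all probe sets (1236 by limma and 2677 at an unadjusted p under 0.05, against 1 of the 5 genes at that level). nau read 5.86, 5.77 and 6.48 with Pnt against 4.44, 4.30 and 4.64 in wild type. The arrays were apart, and the change of 1.58 ± 0.58 (limma, adjusted p = 0.108) was called only in the fit of the 2 groups alone (0.0182). Kr spread from 2.09 to 4.73 and overlapped wild type, as did kn at 5.27, 4.78 and 4.03.

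Compared directly, Pnt left kn lower than Ras did, by a log2 fold change of -1.54 ± 0.29 (at least 2.49-fold, limma, adjusted p = 0.00123), beside 9.77% of all probe sets. nau (-0.94 ± 0.58, adjusted p = 0.426) and Kr (-1.70 ± 0.63, adjusted p = 0.107) were also apart and lower with Pnt, uncalled. nau passed in the fit of the 2 groups alone (adjusted p = 0.0438), and Kr passed without Pnt 2A, its highest Pnt array (-2.27, adjusted p = 0.037). org-1 (-2.10), slou (-2.20), Dr (-1.58) and jumu (-0.79) were likewise lower with Pnt than with Ras, as was emc (-0.75). So were 4 of 7 neural, 5 of 7 ectodermal and 5 of 8 hemocyte and fat body markers, whose part in the kn value was not tested.

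With activated Thickveins, a Dpp receptor, 0 of the 5 genes were called, beside 8.38% of all probe sets (1170 by limma and 2521 at an unadjusted p under 0.05, where Kr was the 1 gene of the 5). Kr read 4.82, 3.97 and 4.90 against 3.11, 2.65 and 3.75, apart from wild type (1.39 ± 0.63, adjusted p = 0.24). vg read 2.49, 1.95 and 0.41, below all 3 wild type arrays at 3.26 to 3.28 (-1.65 ± 0.99, adjusted p = 0.444), though all of these readings lay within the range of mouse control probe sets. nau read 4.17, 1.86 and 4.58, and arrays A and B stood below every wild type array (4.30 to 4.64). All nau readings of both groups lay within the range of empty probe sets. In the same cells 5 of 9 other identity genes rose, Doc1 (1.53), jumu (0.81), Doc3 (2.03) and tey (2.24) having the smallest p, and slou fell (-2.29).

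Loss of wingless moved kn and Kr in opposite directions, beside 26.6% of all probe sets called. kn read 6.25, 6.49 and 6.47 against 4.54, 3.89 and 4.37 in wild type, a rise of 2.13 ± 0.29 (at least 3.24-fold, limma, adjusted p = 7.13e-06). Kr read 0.63, 1.01 and 1.91 against 3.11, 2.65 and 3.75, a log2 fold change of -1.99 ± 0.63 (limma, adjusted p = 0.0224), and all 6 readings lay within the range of empty probe sets. Both genes were apart from wild type on every array.

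The kn arrays of wg mutants overlapped those of Ras, at the opposite end from Arm. nau read 4.62, 5.42 and 4.89 and overlapped wild type (0.52 ± 0.58, adjusted p = 0.581), so the genes that moved together with EGFR, FGFR and Ras did not share a call here. Poxm read 3.87, 2.47 and 2.63 (-0.81 ± 0.49, adjusted p = 0.26), and vg 3.62, 4.16 and -0.89, with array C alone far below wild type (-0.97 ± 0.99, adjusted p = 0.538).

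RNA quality moved with this genotype. The 3′ minus 5′ signal of the eIF-4a control was 3.31, 3.59 and 3.29 in wg mutants against 2.01, 2.24 and 2.15 in wild type, and that of actin was 1.39, 1.38 and 1.38 against 0.88, 0.88 and 1.00. With the eIF-4a difference as a covariate, chosen after these values were seen, kn gave 3.22 (adjusted p = 0.0504) and Kr -1.70 (adjusted p = 0.786), and calls over all probe sets fell from 3709 to 793. Genotype and control signal nearly coincide in set 2, so their parts cannot be told apart. The kn call held under every other setting. The Kr call was also lost without wild type 2A (adjusted p = 0.0509), wild type 2C (0.0968), wg 2A (0.0873) or wg 2B (0.0621), and without the letter A arrays (0.217).

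Among the related genes, wg mutants had lower slou (-2.30), Six4 (-3.75), Doc3 (-3.52), eya (-1.05) and Doc2 (-1.10), and higher eve (0.84) and H15 (1.24). The bHLH inhibitor emc rose (0.74) and twi fell (-1.62). Of the Pax relatives gsb fell by 4.27 and gsb-n by 1.35, while toy rose (1.58), and kni (-1.98) and hkb (-2.42) fell among the 6 gap relatives. Founder cell genes fell in 5 of 9 cases and 0 rose, so kn went against that list. Of 7 ectodermal markers 3 fell and of 7 neural markers 1 did, with 0 rising in either list.

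In set 2 the order of kn means was Arm (3.12), GFP negative (3.97), Tkv (4.03), wild type (4.27), Pnt (4.69), Arm+Ras (4.90), Ras (6.23) and wg loss (6.40). Neighbours were apart between Arm and GFP negative cells and between Arm+Ras and Ras. The nau means ran from GFP negative cells (2.60) over Tkv (3.54), wild type (4.46), Arm (4.82), wg loss (4.98), Pnt (6.03) and Arm+Ras (6.74) to Ras (6.97), with neighbours apart from wg loss to Pnt and from Pnt to Arm+Ras. For Kr they were wg loss (1.18), Arm (2.53), wild type (3.17), Pnt (3.60), GFP negative (4.16), Tkv (4.56), Ras (5.29) and Arm+Ras (5.61). Kr neighbours were apart up to wild type and again between Tkv and Ras. For kn, nau and Kr alike, all readings of the groups up to wild type lay within the range of empty probe sets. The order at that end is therefore one of readings not told from those of empty probe sets. vg means ran from 1.61 with Tkv to 4.15 with Arm+Ras and Poxm means from 2.99 in wg loss to 4.96 with Arm+Ras, every neighbour overlapping.

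**Figure D5:**
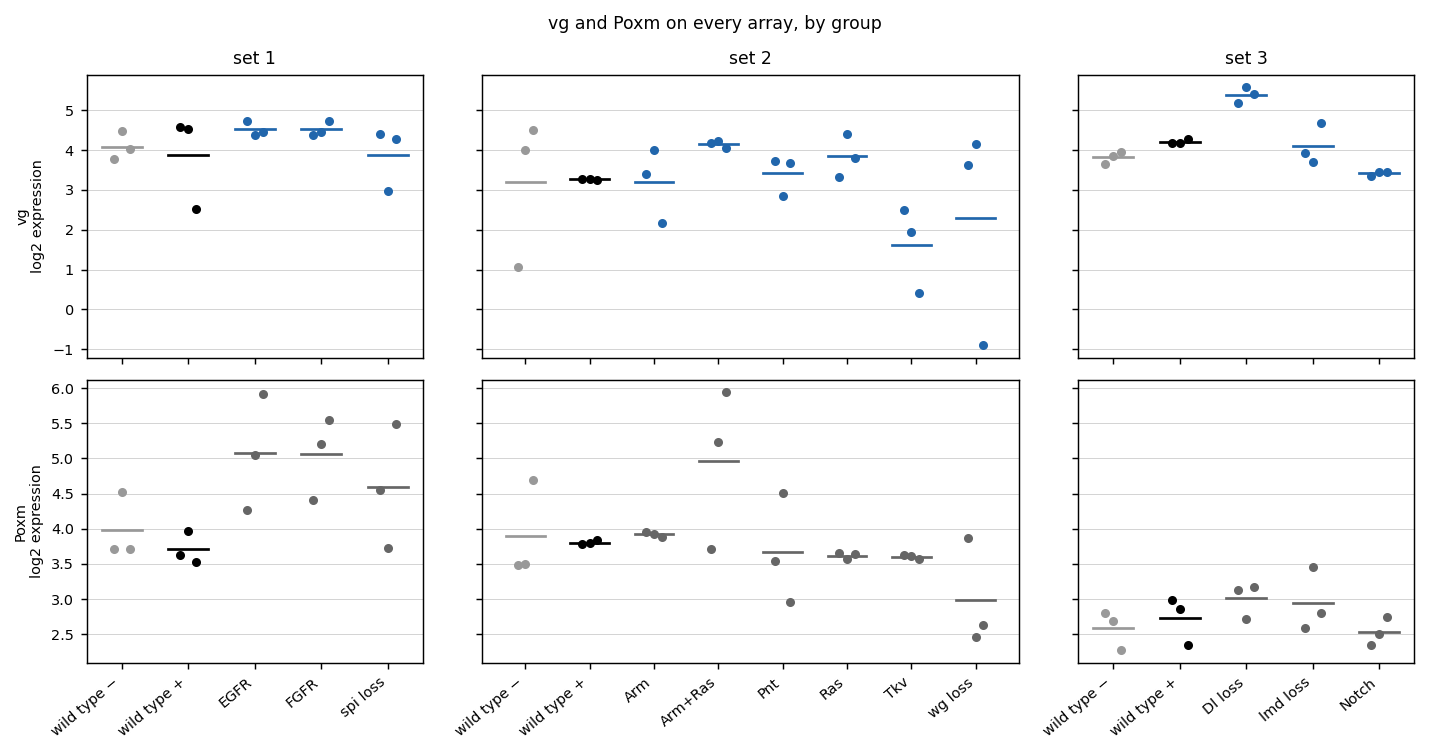
The log2 expression (vertical axis) of vg and Poxm is shown on every array by group, drawn as for the other genes. In set 3 the Dl loss arrays of vg, at 5.17 to 5.58, stand above all other groups, and Poxm in set 3 stays between 2.28 and 3.46.

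Activated Notch lowered nau and kn, and loss of Delta raised nau and vg. The background shares were 1.48% for Notch and 2.37% for Dl loss. Loss of lmd called none of the 5 genes beside 1.03% of all probe sets (144 by limma and 1490 at an unadjusted p under 0.05, kn being the 1 gene of the 5 there). All 3 genotypes were labelled 6 to 8 h old and their wild type 5.5 to 7.5 h, so age and genotype cannot be told apart in these comparisons, whereas the 3 genotypes share their age with each other.

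nau read 1.85, 2.99 and 1.21 with Notch, 6.48, 6.51 and 6.43 in Dl mutants and 5.01, 4.72 and 5.12 in lmd mutants, against 4.95, 4.56 and 4.42 in wild type. Notch was below even the GFP negative cells (3.66 to 4.11), Dl loss was above all other groups of the set, and lmd loss overlapped wild type. The changes were -2.63 ± 0.35 for Notch (at least 2.08-fold lower, limma, adjusted p = 0.000834), 1.83 ± 0.35 for Dl loss (3.56-fold higher, limma, adjusted p = 0.011) and 0.31 ± 0.35 for lmd loss (adjusted p = 0.839). The Notch call was lost in the fit of the 2 groups alone (0.0887) and without the letter A arrays (0.0653). The Dl call was lost without wild type 3B (0.0511) or 3C (0.0571) and without the letter A arrays (0.0883).

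kn read 3.57, 3.89 and 4.06 with Notch, 5.98, 6.49 and 6.41 in Dl mutants and 6.25, 6.68 and 6.65 in lmd mutants, against 5.54, 5.84 and 5.61 in wild type. Every mutant array was above every wild type array and every Notch array below them, and below the GFP negative cells too. The Notch change was -1.82 ± 0.20 (at least 3.53-fold lower, limma, adjusted p = 0.000129) and held under every setting. Dl loss (0.63 ± 0.20, limma, adjusted p = 0.139) and lmd loss (0.86 ± 0.20, limma, adjusted p = 0.0521) missed the threshold. With the letter as a block both passed it (0.0111 and 0.00227). The lmd value also passed it without lmd 3A (1.00, adjusted p = 0.0381), when only the brighter probe sets were tested (0.0265) and without the letter A arrays (0.0287).

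Kr read 1.41, 1.65 and 2.06 with Notch, 5.30, 5.35 and 5.52 in Dl mutants and 5.39, 4.52 and 3.88 in lmd mutants. The wild type arrays were at 4.32, 2.42 and 4.87, array B far under the others, and Notch was below and Dl loss above all of them. Neither change was called, at -2.16 ± 0.55 (limma, adjusted p = 0.0803) and 1.52 ± 0.55 (adjusted p = 0.235). Without wild type 3B the Notch change was -2.89 (adjusted p = 0.00673), and it passed when only the brighter probe sets were tested (0.0467) and with the letter as a block (0.0393). All Kr and nau readings with Notch lay within the range of empty probe sets.

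vg had its only call against a wild type in this set. It read 5.17, 5.58 and 5.40 in Dl mutants and 3.36, 3.46 and 3.44 with Notch, against 4.18, 4.17 and 4.28 in wild type and 3.93, 3.70 and 4.67 in lmd mutants. Dl loss was above and Notch below every wild type array, and lmd loss overlapped. The Dl rise was 1.17 ± 0.25 (2.26-fold, limma, adjusted p = 0.0238), and the fall with Notch of -0.79 ± 0.25 was not called (adjusted p = 0.205). The Dl call was lost without wild type 3A (adjusted p = 0.0813), 3B (0.0926) or 3C (0.0702), without Dl 3B (0.108) or 3C (0.082), without the letter A arrays (0.117) and with the eIF-4a covariate (0.0901). Poxm was at 2.35 to 3.46 in these 4 mesodermal groups and under the array median throughout, with changes from -0.20 to 0.28.

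The 3 genotypes of set 3 were also compared with each other at matched age. Between Notch and Dl loss 4 of 5 genes were called, all lower with Notch, beside 5.36% of all probe sets. The log2 fold change of nau was -4.46 ± 0.35 (at least 7.40-fold lower, limma, adjusted p = 1.68e-06), that of Kr -3.68 ± 0.55 (at least 3.49-fold, adjusted p = 0.000916), that of kn -2.45 ± 0.20 (at least 5.45-fold, adjusted p = 2.14e-06) and that of vg -1.96 ± 0.25 (at least 3.47-fold, adjusted p = 0.000235). None of the 4 overlapped, and each call held without any 1 array and under every other setting. Poxm differed by -0.47 ± 0.38 (adjusted p = 0.644).

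Between Notch and lmd loss 3 of 5 were called, all lower with Notch, beside 3.61% of all probe sets. These were nau (-2.93 ± 0.35, at least 2.57-fold, limma, adjusted p = 0.000147), Kr (-2.89 ± 0.55, at least 2.01-fold, adjusted p = 0.0084) and kn (-2.68 ± 0.20, at least 6.40-fold, adjusted p = 1.62e-06), and Kr alone lost its call, without the letter A arrays (adjusted p = 0.153). vg was lower by 0.68 on the log2 scale (adjusted p = 0.199). Between lmd loss and Dl loss 2 of 5 were called, beside 1.7% of all probe sets: nau (-1.53 ± 0.35, limma, adjusted p = 0.0413) and vg (-1.28 ± 0.25, adjusted p = 0.0163), both lower in lmd mutants. kn differed by 0.23 ± 0.20 (adjusted p = 0.714) and overlapped. The nau call was lost without any 1 of the 6 arrays (adjusted p from 0.0854 without lmd 3A to 0.137 without Dl 3B), without a variance trend (0.0858) and without the letter A arrays (0.211). The vg call was lost without Dl 3B (0.0893), Dl 3C (0.0674), lmd 3A (0.0595) or lmd 3B (0.0683), in the fit of the 2 groups alone (0.166) and after dropping the letter A arrays (0.121).

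Other values moved with these genotypes. The eIF-4a 3′ minus 5′ signal was 2.83 to 3.74 in Dl mutants, 2.80 to 3.87 in lmd mutants and 2.90 to 3.43 with Notch, against 2.37 to 2.79 in wild type. The 3 genotypes thus overlapped each other and not the wild type. Neural markers rose in 3 of 7 cases in Dl mutants and were lower with Notch in 5 of 7 cases than in Dl mutants, with repo, a glial gene, higher. Their summed log2 level was 41.63 to 44.62 in Dl mutants, 36.82 to 37.97 in lmd mutants, 35.12 to 36.94 with Notch and 37.71 to 39.68 in wild type, so Dl mutants stood above wild type and Notch below. The part of neural RNA in the vg, Kr, kn and nau values was not tested.

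Of the related genes, with Notch slou (-3.03), org-1 (-1.67) and tey (-4.21) fell, 1 of 14 homeobox and 2 of 9 other identity genes, with medians of -0.37 and -0.35 beside 0.003 for all probe sets. In Dl mutants slou rose (1.49), and in lmd mutants Dr rose (0.83). Between Notch and Dl loss slou (-4.52), Antp (-1.28), org-1 (-2.32), tey (-4.97) and jumu (-0.92) were lower with Notch, and emc was higher (0.84). Of 6 gap relatives hb (2.18) and gt (1.90) rose in Dl mutants and 1 fell with Notch, and 0 of 8 Pax relatives were called in any of the 3 genotypes. Founder cell genes rose in 4 of 9 cases in Dl mutants and fell in 5 of 9 with Notch, while fusion-competent myoblast genes fell in 3 of 6 in Dl mutants and in 2 of 6 in lmd mutants.

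In set 3 the nau means were ordered Notch (2.02), GFP negative (3.86), wild type (4.64), lmd loss (4.95) and Dl loss (6.47), with only wild type and lmd loss overlapping. kn ran from Notch (3.84) over GFP negative (5.14), wild type (5.66) and Dl loss (6.29) to lmd loss (6.52), with only the last pair overlapping. Kr ran from Notch (1.71), which stood apart, over wild type (3.87), GFP negative (4.50) and lmd loss (4.60) to Dl loss (5.39), all overlapping their neighbours. vg ran from Notch (3.42) over GFP negative (3.82), lmd loss (4.10) and wild type (4.21) to Dl loss (5.38), and both ends were apart from their neighbour. Poxm means lay between 2.53 and 3.01 and overlapped throughout.

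Across the 12 genotypes against wild type, nau had 6 calls (5 up, 1 down), kn 6 (4 up, 2 down), Kr 5 (3 up, 2 down), vg 1 and Poxm 0. nau and kn were the pair most alike over the 54 arrays, with Pearson r = 0.72 after each value was reduced by its set's mean, and r = 0.97, 0.50 and 0.87 within sets 1, 2 and 3. Kr was less like either (0.41 with nau and 0.29 with kn, and 0.78 and 0.76 within set 3), and the other pairs ran from 0.12 to 0.45. These correlations describe arrays that share genotypes, wild types and processing.

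The genes most like each of the 5, by the same measure over 54 arrays, were found among all probe sets with 1 symbol. For nau they were C1GalTA (r = 0.81), a glycosyltransferase gene, rols (0.80), which is needed for myoblast fusion in founders, and RhoGAP15B (0.79). For Kr they were esg (0.81), a Snail-family zinc finger gene, brat (0.75), a translational repressor that acts in neural stem cells, and drongo (0.73). For kn they were Galphao (0.79), a G protein subunit, fwd (0.78), a phosphatidylinositol kinase, and tacc (0.74), a centrosome protein. For each of these 9 genes r was at least 0.68 within every set. vg was less closely matched, by btd (0.62), CG7766 (0.58) and prage (0.57), and r for btd was -0.10 within set 1. Poxm was matched by aos (0.60), a secreted EGFR inhibitor, HnRNP-K (0.59) and CG15450 (0.56), and r for aos was 0.14 within set 3.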

How the data were processed

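The deposited table holds 1 log2 expression value for each of 14010 probe sets on each of 54 DrosGenome1 arrays. Per the submitters' processing notes the authors used the tool affy for these log2 values, and the version, background correction, normalization and summary method are not given in the sources used here. The log base was inferred from the values (-3.076 to 13.581), and array medians that differ by set point to separate normalization, which would make levels incomparable between sets. All columns were mapped to samples by title. Tests left out 44 control probe sets and took the other 13966 with no filter on low values, and there were 10 missing values, none in the genes described. Gene symbols come from GEO's platform annotation (12442 probe sets with 1 symbol, 327 with several, 1197 with none).

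limma 3.58.1 (R 4.3.3) fitted 1 mean per group over all arrays of a set, with a variance trend. The gate was fitted over the 18 wild type arrays with a term for each set. Tests are two-sided, adjusted by Benjamini-Hochberg over all probe sets, with a threshold of 0.05. Python 3.11.15 (pandas 2.3.3, numpy 2.4.6, matplotlib 3.10.9) made tables and figures. Errors are SE from limma unless stated, with 3 arrays per group, and the number of arrays limits the precision.

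The genes, the lists of related genes and markers, and the tests were chosen with earlier results of these data known. Text names all probe sets of the 5 genes and, for each, the 3 genes most like it. Called partner genes are named, except the 1 that fell with Pnt against wild type. Of another list up to 4 called members with the smallest p are named, though not for every list and comparison. The list genes abd-A, sca, tin, nos, scrt, sd, Mef2, toe, He, Ubx, Fas3 and trh were not analysed here, nor were Dl, N, pnt, Ras85D, stumps, arm and wg as a check of the labels. Alternatives were no variance trend, quantile normalization, a fit of the compared groups only, a block for the replicate letter, only probe sets brighter than the median, the mean over a gene's probe sets, single sets for the gate, and each array left out. The fit without the letter A arrays was planned too. The eIF-4a covariate was added after the control probe sets had been seen.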

Additional observations from a re-analysis of the deposited data

How the results depend on the processing

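Of the 34 called values of the 5 genes, 20 kept their call without any 1 array, 14 under every other alternative and 14 under both. No called value reversed its direction, while 24 uncalled values changed sign under some alternative, 44 times in all. Of 71 uncalled values, 10 were called under at least 1 alternative.

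The counts of genes called changed as follows, and the cause was not tested except where fewer arrays or genes entered. Without the letter A arrays the count was 0 in place of 1 for spi, Arm and Arm+Ras against Ras, 0 in place of 2 for Arm+Ras, Dl and lmd against Dl, 1 in place of 2 for the gate, Ras, wg and Notch, 1 in place of 3 for Arm+Ras against Arm, and 1 in place of 0 for lmd. With no variance trend it was 0 for spi and Arm+Ras and 1 for lmd against Dl. With only the groups compared it was 0 for spi and Arm, 1 for Pnt, Notch and lmd against Dl, and 2 for Pnt against Ras. Among the brighter probe sets, which include only 2 of the genes in the gate and in set 2, it was 1 for the gate, Arm+Ras and wg, and 1 for lmd. With the eIF-4a covariate it was 1 for Arm+Ras and Dl and 0 for wg. Set 2 alone and set 3 alone gave 0 for the gate.

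With each array left out in turn, counts ran from 0 to 1 for spi, Arm and lmd, from 1 to 2 for Ras and wg, 0 throughout for Arm+Ras, from 0 to 1 for lmd against Dl, from 0 to 2 for Dl and Arm+Ras against Ras, and from 1 to 2 for Pnt against Ras. Smaller changes are again left out, such as the loss of Kr with EGFR and FGFR without any 1 array other than wild type 1C.

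The labels do not say what a shared letter marks. Arrays of 1 letter deviated together with a median r of 0.025, 0.017 and 0.04 in the 3 sets, against -0.012, -0.009 and -0.053 between letters, and 0 of 30, 3 of 84 and 10 of 30 pairs were over 0.1. Of the arrays, 11 of 15, 18 of 24 and 10 of 15 correlated best with their own letter, a hint from the data of a shared batch. In set 3 the eIF-4a 3′ minus 5′ signal was lowest on letter A in all 5 groups. With the letter as a replicate block no call was lost, the count for lmd was 1 in place of 0 (kn, adjusted p = 0.00227), and Kr in the gate (0.0338), with Ras (0.0243) and with Notch (0.0393) and kn in Dl mutants (0.0111) were called.

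Counts over all probe sets moved by over 1.5 times with the eIF-4a covariate, from 3709 to 793 for wg and from 1170 to 563 for Tkv. They rose from 331 to 744 for Dl, from 144 to 634 for lmd and from 207 to 686 for Notch. Between genotypes they rose from 237 to 458 for lmd against Dl and from 504 to 797 for Notch against lmd. With the letter block the counts were 709 for Dl, 385 for lmd and 424 for Notch. Other settings and comparisons moved as far, such as EGFR from 382 to 165 with no variance trend and to 112 without the letter A arrays. Signal within the range of empty probe sets limits the values of all 5 genes in the set 2 wild type, of nau, Kr, vg and Poxm with Notch, and of most Poxm and vg readings. The age difference limits the comparisons of set 3 with wild type.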
